A study of Mus musculus with 19 samples.

Results

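Genes of the ductular reaction and its keratins, 9 of the 31053 genes listed in the count table, were followed in mouse liver: *Krt7*, *Krt8*, *Krt18*, *Krt19*, *Krt23*, *Sox9*, *Spp1*, *Epcam* and *Cldn7*. They were chosen by name, with earlier results of these data known, so their p-values are not independent evidence. Livers came from male C57BL/6 mice, given as 6 to 8 weeks old, which cannot be their age at sacrifice after the TAA course, and formed 3 groups. The vehicle group (n = 5) received PBS. The AAV-GFP group (n = 7) received increasing doses of thioacetamide (TAA), a hepatotoxin that scars the liver, for 12 weeks and, after 10 weeks, a serotype 8 adeno-associated vector (AAV8) expressing green fluorescent protein. The AAV-miR-34b/c group (n = 7) received the same TAA course and a mixture of AAV8 vectors for miR-34b and for miR-34c. Mice were killed 4 weeks after vector injection, and whether vehicle mice received a vector is not given in the sources used here. The TBG promoter of the microRNA vectors is active in hepatocytes, so cholangiocytes were not the intended site of expression. AAV-GFP livers differ from vehicle livers in TAA and possibly in vector, and effects of these agents cannot be told apart here. The number of libraries limits each comparison, and the comparisons share groups, so their results are not independent of each other.

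When the liver is injured for a long time, bile duct epithelium and bipotent progenitor-like cells expand at the portal edge, and some hepatocytes take on duct genes. This ductular reaction is a usual companion of fibrosis. *Krt7* and *Krt19* are keratins of cholangiocytes, the cells that line bile ducts, and are very low in hepatocytes, whereas *Krt8* and *Krt18* form the obligate keratin pair of hepatocytes and are also made by ducts. *Sox9* encodes a transcription factor of ducts and of hepatocytes in transition. *Spp1* encodes osteopontin, a secreted ligand of integrins and CD44. *Epcam* and *Cldn7* encode an adhesion molecule and a tight junction claudin of ductal epithelium, and *Krt23* is a type I keratin induced in injured liver.

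The delivered microRNA miR-34b-5p is shown with its seed, bases 2 to 8, in capitals, because the seed sets which messages it can pair with (RefSeq, GRCm38.p6, minus strand, chr9:51103610-51103632).
mmu-miR-34b-5p: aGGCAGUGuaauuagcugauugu
The complement of this seed, CACTGCC, was in none of the 3′ UTRs of the 9 genes, taking the longest annotated one of each gene (66 bases for *Krt18* to 2648 bases for *Krt7*). Among the 20972 listed genes with an annotated 3′ UTR, 14.3% held it. This says only that these 7 letters are not in those UTRs. The other delivered microRNA, miR-34c-5p, had no entry in the sequences used here, so no separate search was made for it.

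Total counts on genes were 2214073 to 5208405 per library, and the 3′-end libraries put few counts on the duct genes. Of the 9 genes, 4 (*Krt8*, *Krt18*, *Sox9* and *Spp1*) passed the filter on low counts in each comparison, and edgeR's quasi-likelihood test was run on them. *Krt7*, *Krt19*, *Krt23*, *Epcam* and *Cldn7* did not pass it, with at most 26 counts in a library. All 9 genes were therefore also compared with a two-sided exact permutation test over libraries of mean log2 CPM, where CPM are counts scaled by TMM-normalized library size and a prior count of 2 was added. The smallest p this test can give is 0.00126 against vehicle and 0.000583 between the TAA groups, and the 27 exact p-values of the 9 genes are unadjusted unless a value adjusted over all 13389 genes with at least 15 counts is given. Levels of different genes are not compared with each other, and the *Krt18* to *Krt8* ratio of counts is only compared between livers. In whole liver, fewer cells of a type and less RNA per cell cannot be told apart.

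Of the hepatocyte keratin pair, *Krt8* rose in both TAA groups against vehicle, and *Krt18* rose in AAV-miR-34b/c livers against both other groups. *Krt8* and *Krt18* are next to each other on chromosome 15, on opposite strands: *Krt8* (ENSMUSG00000049382) lies on the minus strand at chr15:101996698-102004482 and *Krt18* (ENSMUSG00000023043) on the plus strand at chr15:102028180-102032027, with 23697 bases between them. Their RefSeq promoters are shown because the pair is made together in hepatocytes, from 250 bases before to 50 bases after the annotated start.
Krt8, chr15:102004293-102004592, minus strand: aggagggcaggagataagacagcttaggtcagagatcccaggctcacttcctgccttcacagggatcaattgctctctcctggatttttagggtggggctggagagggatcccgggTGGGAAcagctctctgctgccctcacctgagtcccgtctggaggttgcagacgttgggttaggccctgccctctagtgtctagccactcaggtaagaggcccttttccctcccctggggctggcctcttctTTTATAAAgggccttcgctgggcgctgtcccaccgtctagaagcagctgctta
Krt18, chr15:102027966-102028265, plus strand: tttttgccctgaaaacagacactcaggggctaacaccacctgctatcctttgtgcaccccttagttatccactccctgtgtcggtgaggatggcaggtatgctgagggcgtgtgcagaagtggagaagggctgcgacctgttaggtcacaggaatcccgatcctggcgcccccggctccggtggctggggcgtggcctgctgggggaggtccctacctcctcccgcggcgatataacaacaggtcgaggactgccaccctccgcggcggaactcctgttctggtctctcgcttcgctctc
Capitals mark matches, on either strand, to TATAAA, the TATA box, and to TGGGAA, the core bound by the Notch effector RBPJ. The search also took TGANTCA, the AP-1 site, and GGAATG, the TEAD core. *Krt8* held overlapping matches to TATAAA, the one on its own strand from position -1, and 1 match to TGGGAA from position -134, counted from the annotated start, whereas *Krt18* held none of the 4 motifs. Promoters of 7 of the 9 genes were matched, and the other matches were TATAAA in *Spp1*, GGAATG in *Cldn7* and, at another start of *Cldn7*, TGGGAA. Of 32851 such promoters, 13.6% held TATAAA, 25.6% TGGGAA, 14.7% GGAATG and 7.81% TGANTCA.

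The level of *Krt8* was 34.2, 28.0, 39.5, 41.2 and 38.0 CPM in the 5 vehicle livers. It was 51.0 to 96.1 CPM (median 57.1) in AAV-GFP livers and 63.6 to 84.5 CPM (median 77.6) in AAV-miR-34b/c livers. Every TAA liver was above every vehicle liver, while the TAA groups overlapped. *Krt8* rose from 36.2 ± 5.24 CPM (SD, n = 5) to 61.7 ± 15.6 CPM (SD, n = 7) with TAA and AAV-GFP, a log2 fold change of 0.77 (SE 0.188, edgeR adjusted p = 0.0119). Against vehicle it also rose in AAV-miR-34b/c livers, to 75.9 ± 8.84 CPM (SD, n = 7), by 1.07 on the log2 scale (SE 0.152, edgeR adjusted p = 0.000307). Summing pairs of unusually similar libraries ended the AAV-GFP call but not the AAV-miR-34b/c call, as given below. Between the TAA groups the *Krt8* difference was 0.29 (SE 0.153) and was not called (edgeR adjusted p = 0.397). The exact permutation test gave p = 0.0385 there, p = 0.42 with scaling by library size only, and p from 0.0513 to 0.0740 in the 10 of 14 analyses that left out 1 library and lost the threshold. A processed pseudogene, *Krt8-ps*, is annotated, though the count table lists no gene under that name. Its likeness to *Krt8* was not measured, and how reads matching both were counted is not given in the sources used here.

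The level of *Krt18* was 65.6, 120, 97.1, 71.7 and 79.2 CPM in vehicle livers. It was 94.0 to 192 CPM (median 123) in AAV-GFP livers and 160 to 358 CPM (median 247) in AAV-miR-34b/c livers. All 7 AAV-miR-34b/c livers were above all vehicle livers, and 4 of them were above all AAV-GFP livers. Of the 4 genes that edgeR tested between the TAA groups, *Krt18* was the only one called, where 1.95% of all genes tested were called higher. It rose from 129 ± 31.5 CPM (SD, n = 7) to 244 ± 76.0 CPM (SD, n = 7), a log2 fold change of 0.90 (SE 0.197, edgeR adjusted p = 0.0128, exact permutation p = 0.00233). Leaving out any 1 library kept this call, with log2 fold changes of 0.79 to 1.03 and edgeR adjusted p up to 0.0379, but summing pairs of unusually similar libraries ended it (0.87, edgeR adjusted p = 0.0881). Against vehicle, *Krt18* rose in AAV-miR-34b/c livers by 1.495 on the log2 scale (SE 0.225, edgeR adjusted p = 0.000489). The AAV-GFP difference from vehicle, 0.58 (SE 0.195), was not called (edgeR adjusted p = 0.0546), and it passed in 4 of the 12 analyses without 1 library (vehicle 2, AAV-GFP 1, AAV-GFP 6 or AAV-GFP 7).

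**Figure D1:**
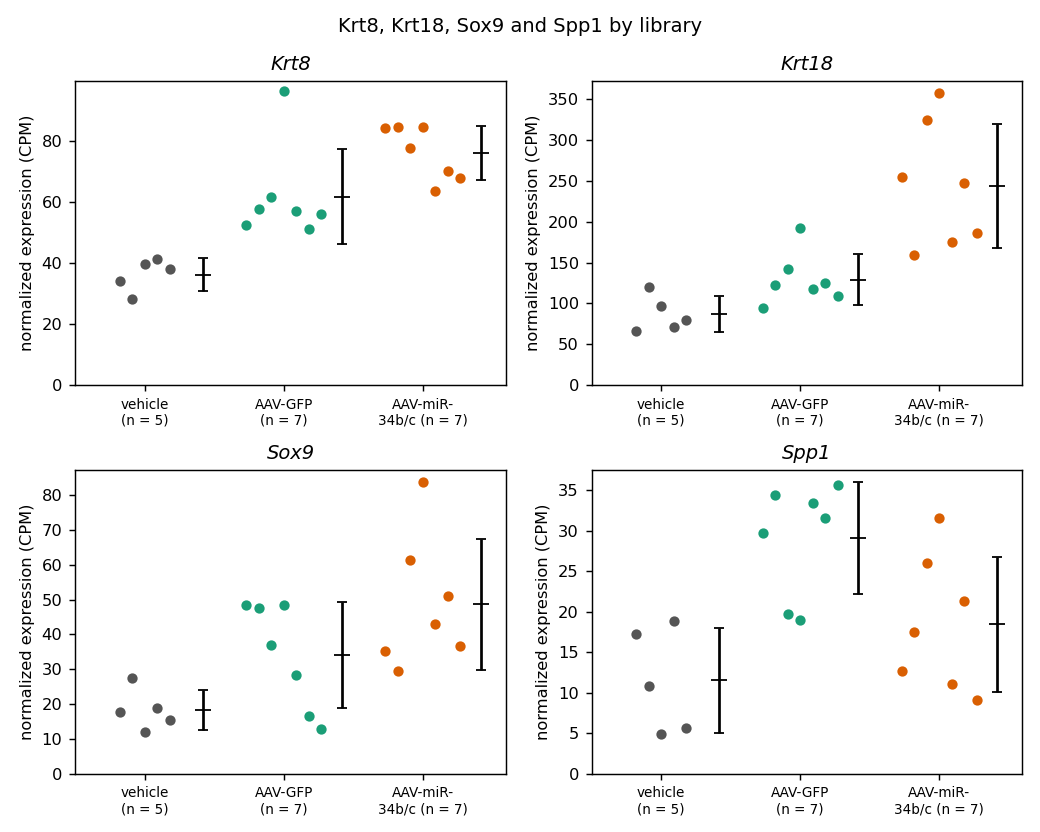
Normalized expression (CPM) of *Krt8*, *Krt18*, *Sox9* and *Spp1*, 1 point per library, in the 3 groups (n = 5, 7 and 7), with the mean and SD beside the points. Every AAV-miR-34b/c liver is above every vehicle liver for *Krt8*, *Krt18* and *Sox9*, and every AAV-GFP liver is above every vehicle liver for *Krt8* and *Spp1*.

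The ratio of *Krt18* to *Krt8* counts was 1.92, 4.27, 2.46, 1.74 and 2.09 in vehicle livers. It was 1.79 to 2.45 (median 2.06) in AAV-GFP livers and 1.90 to 4.24 (median 3.03) in AAV-miR-34b/c livers. Vehicle 2, at 4.27, was well above the other vehicle livers, and the AAV-miR-34b/c livers overlapped both other groups. Every AAV-miR-34b/c liver except AAV-miR-34b/c 2, at 1.90, was above every AAV-GFP liver. The ratio is not adjusted for length and was not tested.

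**Figure D2:**
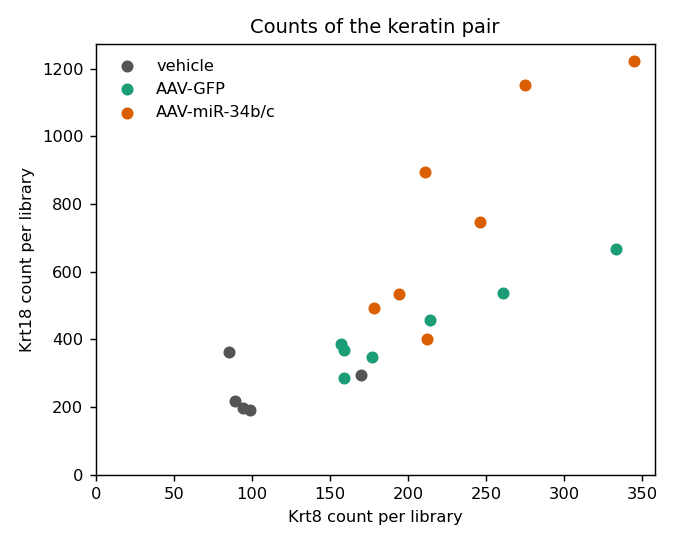
Counts of *Krt8* (horizontal axis) and *Krt18* (vertical axis) in each of the 19 libraries, coloured by group. AAV-GFP livers lie at 1.79 to 2.45 *Krt18* counts per *Krt8* count, AAV-miR-34b/c livers at 1.9 to 4.24 and vehicle livers at 1.74 to 4.27.

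*Sox9* (ENSMUSG00000000567; plus strand, chr11:112782224-112787760) had 17.6, 27.4, 12.0, 18.9 and 15.3 CPM in vehicle livers. It had 12.9 to 48.5 CPM (median 36.8) in AAV-GFP livers and 29.4 to 83.7 CPM (median 42.9) in AAV-miR-34b/c livers. AAV-GFP 6 and AAV-GFP 7 lay within the vehicle range, and the other 5 AAV-GFP livers above it. *Sox9* rose in AAV-miR-34b/c against vehicle livers, from 18.2 ± 5.73 CPM (SD, n = 5) to 48.6 ± 18.8 CPM (SD, n = 7), by 1.40 (SE 0.267, edgeR adjusted p = 0.00223). The difference was 0.90 (SE 0.309) in AAV-GFP against vehicle livers, not called (edgeR adjusted p = 0.0585), but called without vehicle 2 (adjusted p = 0.0404), without AAV-GFP 6 (0.0182) or without AAV-GFP 7 (0.0111). Between the TAA groups it was 0.49 (SE 0.291) and was not called (edgeR adjusted p = 0.460). The *Sox9* group means were lowest in vehicle and highest in AAV-miR-34b/c livers, and the steps between neighbouring groups did not pass the adjusted threshold. With no filter on low counts, the step from vehicle to AAV-GFP livers passed (0.902, SE 0.273, edgeR adjusted p = 0.0317). Summing pairs of unusually similar libraries ended the call of AAV-miR-34b/c against vehicle livers, as given below.

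*Spp1* (ENSMUSG00000029304; plus strand, chr5:104435118-104441050) had 17.3, 10.9, 4.88, 18.9 and 5.66 CPM in vehicle livers. It had 19.04 to 35.7 CPM (median 31.5) in AAV-GFP livers and 9.07 to 31.6 CPM (median 17.5) in AAV-miR-34b/c livers. AAV-GFP livers were all above vehicle livers, though the nearest, AAV-GFP 4 at 19.04 CPM, was close to vehicle 4 at 18.9 CPM, and 4 AAV-miR-34b/c livers were below all AAV-GFP livers. *Spp1* rose from 11.5 ± 6.45 CPM (SD, n = 5) to 29.1 ± 6.89 CPM (SD, n = 7) with TAA and AAV-GFP, by 1.305 on the log2 scale (SE 0.295, edgeR adjusted p = 0.00795). Summing pairs of unusually similar libraries ended this call, as given below. The AAV-miR-34b/c difference from AAV-GFP, -0.67 (SE 0.255), was not called (edgeR adjusted p = 0.180), but it was with scaling by library size only. The exact permutation test gave p = 0.0251 for it, and p = 0.0501 without AAV-GFP 7 or without AAV-miR-34b/c 7. Against vehicle the AAV-miR-34b/c difference was 0.65 (SE 0.365, edgeR adjusted p = 0.208).

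The ductal keratins, *Epcam* and *Cldn7* were at a few counts per liver. The mean of each was highest in AAV-GFP livers. *Krt19* (ENSMUSG00000020911; minus strand, chr11:100140810-100148665) had 0, 6, 1, 2 and 2 counts in vehicle livers. It had 3 to 18 counts in AAV-GFP livers (median 10) and 0 to 6 in AAV-miR-34b/c livers (median 4). Its mean was 0.743 ± 0.748, 3.08 ± 2.02 and 1.09 ± 0.801 CPM (SD, n = 5, 7 and 7) in that order. *Krt19* differed by 1.41 on the log2 CPM scale in AAV-GFP against vehicle livers (exact permutation p = 0.0139) and by -1.10 in AAV-miR-34b/c against AAV-GFP livers (exact permutation p = 0.0251). The latter was -1.29 to -0.89 in the 14 analyses without 1 library and passed in 11 of them. Its exact permutation p was 0.0501 without AAV-GFP 2, 0.0524 without AAV-GFP 3 and 0.0501 without AAV-miR-34b/c 1.

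*Krt7* (ENSMUSG00000023039; plus strand, chr15:101411043-101430313) had 2, 2, 1, 10 and 2 counts in vehicle livers. It had 2 to 17 counts in AAV-GFP livers (median 8) and 0 to 5 in AAV-miR-34b/c livers (median 2), with 3 AAV-miR-34b/c livers at 0. Vehicle 4 held more counts than the 4 other vehicle livers together. The AAV-GFP difference from vehicle, 0.80 on the log2 CPM scale, did not pass (exact permutation p = 0.0732), and it did without vehicle 4 (1.05, p = 0.0212) or without AAV-GFP 4 (0.98, p = 0.0195). Against AAV-GFP livers, *Krt7* was lower by -1.21 in AAV-miR-34b/c livers (exact permutation p = 0.0181).

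*Krt23* (ENSMUSG00000006777; minus strand, chr11:99477974-99493137) had 0, 1, 2, 0 and 2 counts in vehicle livers. It had 1 to 24 counts in AAV-GFP livers (median 11) and 0 to 7 in AAV-miR-34b/c livers (median 0), where 4 of 7 livers had none. Of the AAV-GFP livers, 6 were above all vehicle livers, and AAV-GFP 3, with 1 count, was not. The differences were 1.73 against vehicle (exact permutation p = 0.0101) and -1.64 between the TAA groups (exact permutation p = 0.0140). Against vehicle, *Krt23* of AAV-miR-34b/c livers differed by 0.10 (exact permutation p = 0.886), and its sign depends on the prior count.

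*Epcam* (ENSMUSG00000045394; plus strand, chr17:87635979-87651129) had 9, 0, 1, 0 and 0 counts in vehicle livers. It had 4 to 26 counts in AAV-GFP livers (median 11) and 0 to 6 in AAV-miR-34b/c livers (median 3). Vehicle 1 held 9 of the 10 vehicle counts. *Epcam* differed by 1.90 in AAV-GFP against vehicle livers (exact permutation p = 0.0101) and by -1.25 in AAV-miR-34b/c against AAV-GFP livers (exact permutation p = 0.00758), with 5 AAV-miR-34b/c livers below all AAV-GFP livers. Without vehicle 1, the AAV-miR-34b/c livers were also above vehicle (1.13 against 0.66 with all libraries, exact permutation p = 0.0242 against 0.231).

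*Cldn7* (ENSMUSG00000018569; plus strand, chr11:69964779-69967885) had 0, 0, 1, 0 and 2 counts in vehicle livers. It had 1 to 11 counts in AAV-GFP livers (median 5) and 0 to 2 in AAV-miR-34b/c livers (median 0). The 37 counts of the AAV-GFP group compare with 4 in the AAV-miR-34b/c group. The differences were 1.32 against vehicle (exact permutation p = 0.0139) and -1.42 between the TAA groups (exact permutation p = 0.00175, 0.0818 adjusted over all genes). *Cldn7* reached the minimum count for the exact test only through AAV-GFP livers, where it was highest. Both passes are therefore partly set by that minimum. In edgeR without the filter on low counts, *Cldn7* was the one of these 5 genes called between the TAA groups (log2 fold change -2.96, SE 0.787, edgeR adjusted p = 0.0475), and *Krt23* (3.07, SE 0.765, edgeR adjusted p = 0.00833) and *Epcam* (2.33, SE 0.714, edgeR adjusted p = 0.0338) were called between AAV-GFP and vehicle.

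**Figure D3:**
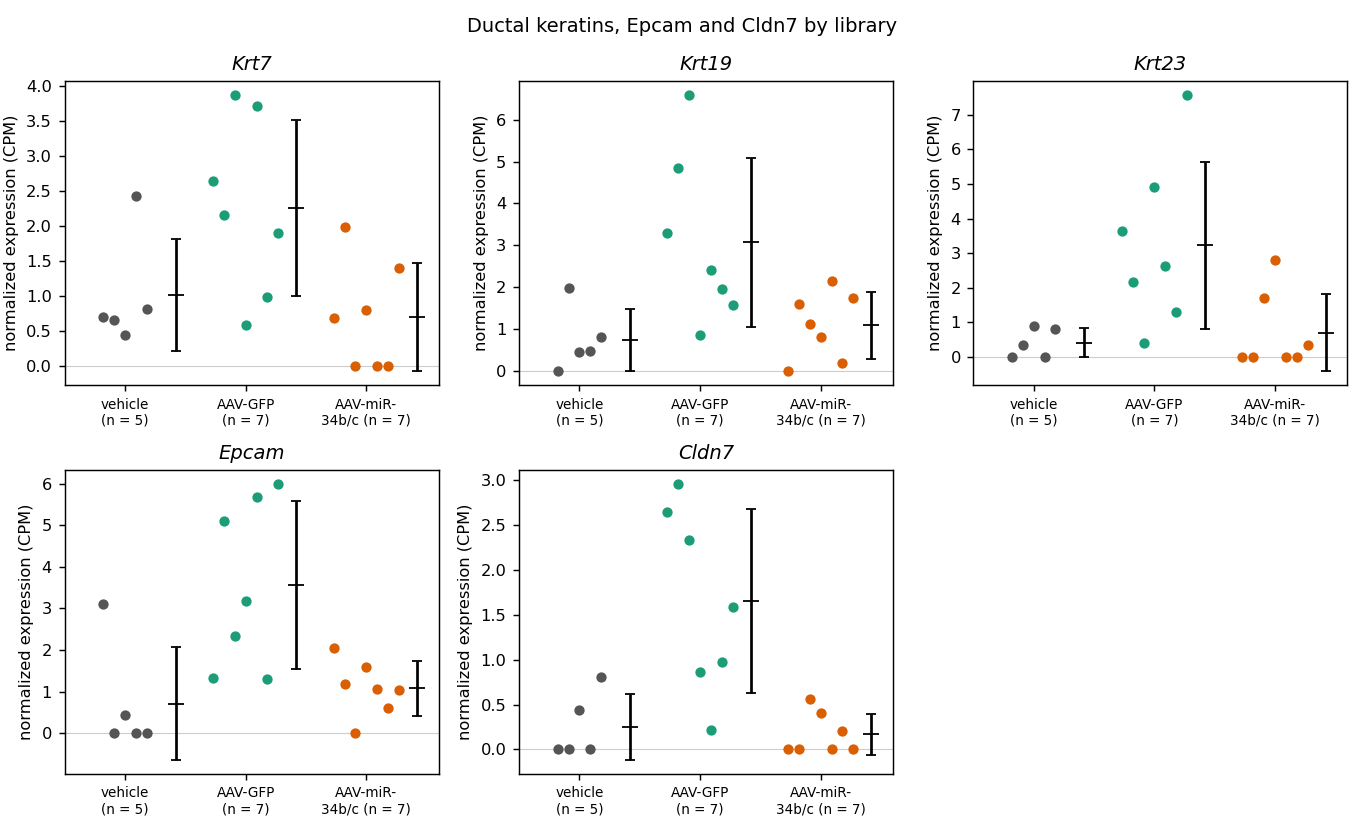
Normalized expression (CPM) of *Krt7*, *Krt19*, *Krt23*, *Epcam* and *Cldn7*, 1 point per library, in the 3 groups, with the mean and SD beside the points. The AAV-GFP group has the highest mean in each panel, and *Cldn7* is at 0 in 3 of 5 vehicle and 4 of 7 AAV-miR-34b/c livers.

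Of the 9 genes, edgeR tested 4 in each comparison. Its counts leave out *Krt7*, *Krt19*, *Krt23*, *Epcam* and *Cldn7*. It called 2 higher and 0 lower in AAV-GFP against vehicle livers, while 7.54% of 9522 genes tested were called higher and 5.19% lower. The exact permutation test gave p under 0.05 for 7 higher and 0 lower, against 12.4% higher and 10.9% lower of all 13389 genes, and the smallest of these adjusted over all genes was 0.0532. Between the TAA groups edgeR called 1 higher and 0 lower, against 1.95% and 1.42% of 9252 genes. The exact test passed 2 higher (*Krt8* and *Krt18*) and 6 lower (*Krt7*, *Krt19*, *Krt23*, *Spp1*, *Epcam* and *Cldn7*), against 6.82% higher and 6.94% lower, with adjusted p of 0.0818 at the least. *Cldn7*, among these 6 lower and the 7 higher above, reached the minimum count for this test only through AAV-GFP livers. Both of these counts are therefore partly set by that minimum. Between AAV-miR-34b/c and vehicle livers edgeR called 3 higher and 0 lower, against 12.2% and 9.75% of 9290 genes, and the exact test passed the same 3, *Krt8*, *Krt18* and *Sox9*, with an adjusted p of 0.0361 each, against 13.8% higher and 13.5% lower. The median difference over the 9 genes was 1.32, -1.10 and 0.66 in these 3 comparisons, beside 0.02, -0.02 and 0.02 over all genes. The 1.32 is the value of *Cldn7*, which reached the minimum count only through AAV-GFP livers. These medians are therefore also partly set by that minimum.

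**Figure D4:**
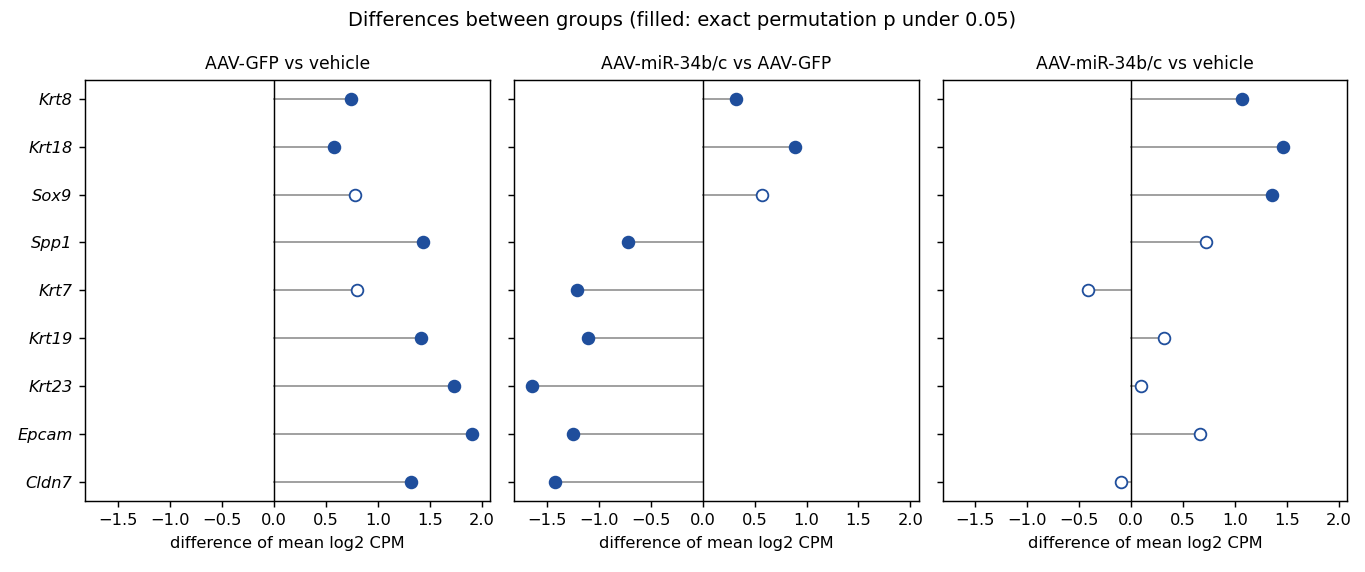
Difference of mean log2 CPM of each of the 9 genes in the 3 comparisons, with filled points where the exact permutation p was under 0.05. *Krt8* and *Krt18* lie to the right in every panel, and *Spp1*, *Krt7*, *Krt19*, *Krt23*, *Epcam* and *Cldn7* lie to the left between the TAA groups.

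Other ductal genes were read from a list of 20 cholangiocyte and ductular markers, of which 7 passed the filter and 15 had enough counts for the exact test. *Bicc1*, an RNA-binding protein of duct and tubule epithelium, had 2 to 13 counts in vehicle, 27 to 98 in AAV-GFP and 12 to 30 in AAV-miR-34b/c livers. *Bicc1* rose by 2.93 with TAA and AAV-GFP (SE 0.404, edgeR adjusted p = 0.000128) and fell by 1.26 between the TAA groups (SE 0.269, edgeR adjusted p = 0.0120). *Onecut1*, a transcription factor of liver and bile duct development, rose in AAV-GFP against vehicle livers by 1.49 (SE 0.457, edgeR adjusted p = 0.0367), where its exact permutation p was 0.0783. Its AAV-GFP livers split, with AAV-GFP 1 to 4 at 32 to 46.2 CPM and AAV-GFP 5 to 7 at 4.55 to 10.9 CPM. So did the AAV-miR-34b/c livers, with AAV-miR-34b/c 5 to 7 at 30.7 to 42.5 CPM and AAV-miR-34b/c 1 to 4 at 3.41 to 9.54 CPM. *Slc10a2*, the apical bile acid transporter, rose with miR-34b/c by 0.86 (SE 0.198, edgeR adjusted p = 0.0181). In the unadjusted exact test 7 of 15 list genes were higher and 0 lower in AAV-GFP against vehicle livers (median difference 0.91), against 12.4% and 10.9% of all genes. Of these 7, *Muc1*, *Cldn4* and *Itgb4* reached the minimum of 15 counts only through AAV-GFP livers, so this count and median are partly set by that minimum. In AAV-miR-34b/c against AAV-GFP livers 1 was higher and 6 were lower (median -0.30), among them *Muc1*, *Cldn4*, *Itgb4*, *Anxa4* and *Bicc1*, against 6.82% and 6.94%. As *Muc1*, *Cldn4* and *Itgb4* entered the test only through AAV-GFP livers, the count of lower genes and the median are also partly set by that minimum. None of the passes in these comparisons held with adjustment over all genes, the smallest being 0.0532 and 0.0733, both for *Bicc1*. In AAV-miR-34b/c against vehicle livers 5 were higher and 0 lower (median 0.44), against 13.8% and 13.5%, and *Bicc1*, *Slc10a2* and *Slc4a2* passed adjustment over all genes (0.0361, 0.0361 and 0.0445).

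**Figure D5:**
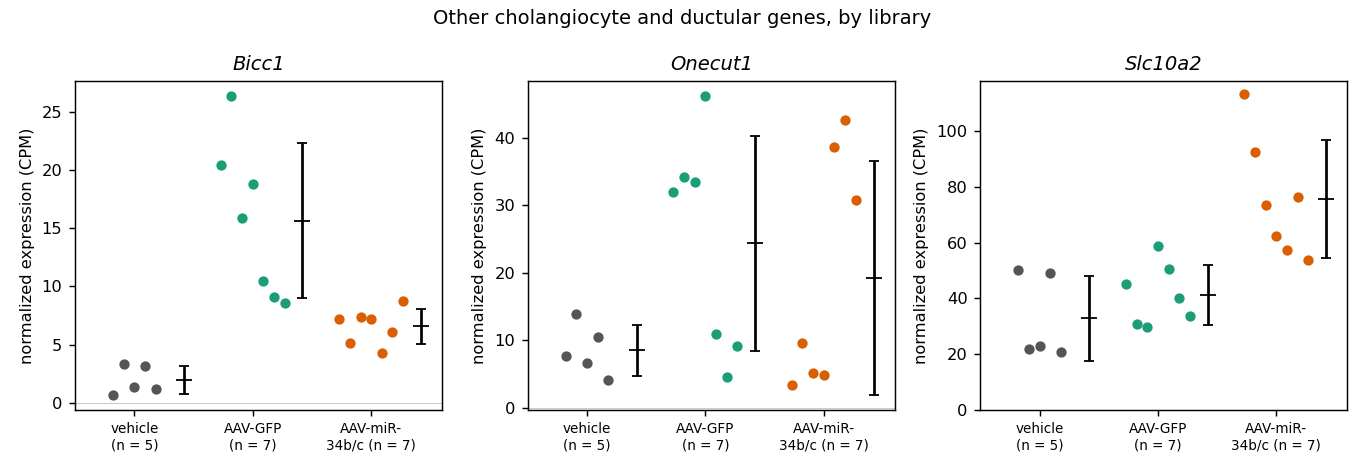
Normalized expression (CPM) of *Bicc1*, *Onecut1* and *Slc10a2*, 1 point per library, in the 3 groups, with the mean and SD beside the points. All AAV-GFP livers are above all vehicle livers for *Bicc1*, at 8.53 to 26.4 CPM against at most 3.29 CPM.

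Of the Notch, YAP and TWEAK genes that act in the ductular reaction, none was called by edgeR in any of the 3 comparisons (11, 10 and 9 tested). By the unadjusted exact test 1 of 13 was higher and 3 were lower between the TAA groups (median -0.43), against 6.82% and 6.94% of all genes, and none of these passed adjustment over all genes. The Notch ligand *Jag1* differed by -1.09 (exact permutation p = 0.00408, adjusted 0.113), *Notch2* by -0.49 (adjusted p = 0.332) and the YAP target *Ankrd1* by -1.27 (adjusted p = 0.278). *Tnfsf12*, which encodes TWEAK, differed by 0.85 (adjusted p = 0.191). Of 48 other keratins, 38 had no count in any library, and *Krt10* alone had enough for the exact test, which it did not pass in any comparison.

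Among 15 other claudins and junction genes, 13 passed the filter. *Tjp3* (1.33, SE 0.279, edgeR adjusted p = 0.00509) and *Cgn* were among the 4 that rose in AAV-GFP against vehicle livers, and none was called lower, beside 7.54% and 5.19% of all genes tested. Between the TAA groups *F11r*, which encodes the junction adhesion molecule JAM-A, rose by 1.11 (SE 0.184, edgeR adjusted p = 0.00187) and *Cldn2* rose by 0.56 (SE 0.145, edgeR adjusted p = 0.0391), both opposite in sign to *Cldn7*. Of the 8 osteopontin receptors 5 were tested, and *Itgb5* and *Itga9* rose and *Itgav* fell against vehicle in both TAA groups, while none was called between them. The counts of these receptors and of the cell type markers are read beside the shares of all genes called: 7.54% higher and 5.19% lower in AAV-GFP against vehicle livers, 1.95% and 1.42% between the TAA groups, and 12.2% and 9.75% in AAV-miR-34b/c against vehicle livers. *Tgm2*, the transglutaminase that cross-links keratin in aggregates, rose by 1.21 in AAV-GFP livers (SE 0.306, edgeR adjusted p = 0.0144) and by 2.17 in AAV-miR-34b/c livers (SE 0.276, edgeR adjusted p = 0.000145) against vehicle, 1 of 7 and 2 of 7 tested keratin stress partners with *Hspa8*, beside 7.54% and 12.2% of all genes called higher.

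Genes most like each tested member over the 19 libraries, by Pearson correlation of log2 CPM among 9927 others, were *Crip2*, *Tmem176b* and *Aldh1b1* for *Krt8* (0.888, 0.886 and 0.884). They were *Gltpd2* and *Sfxn1* for *Krt18* (0.942 and 0.939) and *Afdn*, *St3gal1* and *Slc4a4* for *Sox9* (0.939, 0.937 and 0.928). For *Spp1* they were *Tardbp*, *Syvn1* and *Coq8a* (0.832, 0.824 and 0.816). *Krt8* and *Krt18* correlated at 0.798 over all libraries and at 0.372 once each group's mean was removed. The correlations over all libraries include the differences between groups, and all are given as a description.

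Markers of other cell types moved with some of these genes, and their part was not tested. All 10 hepatocyte markers were detected, at a summed 48530 to 87660 CPM, and 2 of them rose and 0 fell in AAV-GFP against vehicle livers, 1 rose and 0 fell between the TAA groups, and 1 rose and 1 fell in AAV-miR-34b/c against vehicle livers. In AAV-GFP against vehicle livers, the stellate cell markers *Col1a1* (2.42, SE 0.361, edgeR adjusted p = 0.000298), *Pdgfrb* and *Lum* rose and *Rgs5* fell, 3 and 1 of 9 tested. Of 9 tested macrophage markers, *Gpnmb* rose there (6.59, SE 0.541, edgeR adjusted p = 2.81e-07) and *Adgre1*, *Clec4f* and *Cd5l* fell. Of 6 endothelial markers none was called there, and *Lyve1* rose between the TAA groups (1.06, SE 0.168, edgeR adjusted p = 0.0013), with summed levels of 161 to 218 CPM in AAV-GFP and 223 to 275 CPM in AAV-miR-34b/c livers. Of 10 stellate cell markers 8 were tested between the TAA groups, and 2, *Col1a1* and *Col3a1*, fell there, with summed levels of 411 to 547 CPM in AAV-GFP and 265 to 575 CPM in AAV-miR-34b/c livers. Of 10 macrophage markers 9 were tested, *Gpnmb* fell and *Cd5l* rose there, and *Gpnmb* had at most 2 counts in a vehicle liver. In AAV-miR-34b/c against vehicle livers *Gpnmb* and *Lyve1* rose, *Adgre1* and *Cdh5* fell, and no stellate cell marker of 7 tested was called by edgeR. By the unadjusted exact test 2 of 10 stellate cell markers were higher and 1 lower there, against 13.8% and 13.5% of all genes. The 6 mesothelial markers summed to 6.46 to 10.9 CPM in vehicle, 5.82 to 19.8 CPM with AAV-GFP and 2.14 to 6.97 CPM in AAV-miR-34b/c livers. Of these, *Wt1*, *Gpm6a* and *Lrrn4* were lower in AAV-miR-34b/c than in AAV-GFP livers by the unadjusted exact test, where 6.94% of all genes were lower. Mesothelium also makes *Krt7*, *Krt19* and *Krt8*. The 6 pancreas acinar markers summed to 0 CPM in all vehicle livers, 0 to 8.92 CPM with AAV-GFP and 0 to 1.60 CPM in AAV-miR-34b/c livers, with *Clps* at 0 throughout. The highest, AAV-GFP 3, is also the highest liver in CPM, though not in counts, for *Krt7* and *Krt19*, and without it the difference between the TAA groups was -1.08 for *Krt7* (exact permutation p = 0.0379) and -0.91 for *Krt19*, which no longer passed (exact permutation p = 0.0524).

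In all, 6 pairs of libraries within a group lay closer together than the others, with a coefficient of variation beyond counting noise of 0.0812 to 0.171 against 0.215 to 0.480 in the other 46 pairs. Summing each such pair left 3 samples of vehicle, 6 of AAV-GFP and 4 of AAV-miR-34b/c livers. In AAV-GFP against vehicle livers *Krt8* then differed by 0.84 (edgeR adjusted p = 0.0761) and *Spp1* by 1.305 (edgeR adjusted p = 0.0557). *Krt18* differed by 0.87 between the TAA groups (edgeR adjusted p = 0.0881), and *Sox9* by 1.305 in AAV-miR-34b/c against vehicle livers (edgeR adjusted p = 0.0516). In the exact test between the TAA groups, 1 of the 9 genes was then higher and 4 (*Krt7*, *Krt23*, *Epcam* and *Cldn7*) were lower, against 2 and 6 with all libraries. The share of all genes passing with pairs summed is not given here, so these counts have no background beside them. The 4 edgeR calls were lost with fewer samples, while *Krt8* and *Krt18* stayed called in AAV-miR-34b/c against vehicle livers.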

How the data were processed

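Liver RNA of 19 mice was sequenced at the 3′ end (single-end, 100 bases; the sources differ on the RNA input). The deposited values are raw counts per gene, which the authors made by trimming, aligning and counting reads. The submitters' processing notes name STAR and mm10. Annotation, strand setting and molecular identifiers are not given in the sources used here, so intervals from counts cover counting error only. Positions and symbols are from GENCODE for GRCm38 (30934 of 31053 genes matched), and promoter and microRNA sequences from RefSeq. Each pair of groups was fitted alone with edgeR 4.0.16 in R 4.3.3 (TMM, filterByExpr with minimum count 10 and minimum total count 15, glmQLFTest, Benjamini-Hochberg over all genes, threshold 0.05). SE is the log2 fold change divided by the square root of F. DESeq2 1.42.0 and limma 3.58.1 served as alternatives. The exact permutation test enumerated every assignment of libraries to groups. Its p-values and those of edgeR measure the spread between libraries, each taken as a separate mouse. All 9 genes are named, with the called genes of each list (at most 3 per direction and comparison), markers of cell types discussed and the 3 most correlated genes, of which some are not reported here. Genes of lists named by the exact test, *Onecut1*'s split and *Krt10* were chosen after their values were seen. Members and lists were chosen with earlier results of these data known. Scripts were tested on simulated data.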

Additional observations from a re-analysis of the deposited data

Results flagged for a closer look

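Among 27 sets of values (9 genes in 3 groups), 2 had a library far from the rest of its group, and about 1.35 would be so by chance. *Krt7* in vehicle 4 was at 1.61 on the log2 CPM scale, with the next vehicle liver at 0.52, and rests on 10 counts. Without it, the *Krt7* difference between AAV-GFP and vehicle livers was 1.05 (exact permutation p = 0.0212). *Krt8* in AAV-GFP 4 was at 6.60 (6.595 before rounding), with the next AAV-GFP liver at 5.96, and rests on 333 counts.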

How the results depend on the processing

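Depth limits the 5 duct genes left out by the filter, and a missing call does not show that they were alike. With no filter on low counts, 5 of the 9 genes (*Krt8*, *Krt23*, *Sox9*, *Spp1* and *Epcam*) were called in AAV-GFP against vehicle livers, among 16425 genes. Between the TAA groups 2 of the 9 (*Krt18* and *Cldn7*) were called, among 16673 genes. The share of all genes called in these fits is not given here. DESeq2 and limma-voom each called 4 of the 9 in AAV-GFP against vehicle livers, where the DESeq2 number for all genes is not given here. DESeq2 called 542 genes of all between the TAA groups. limma-voom called 2687, 813 and 3839 genes of all in the 3 comparisons, in the order AAV-GFP against vehicle, AAV-miR-34b/c against AAV-GFP and AAV-miR-34b/c against vehicle, where edgeR called 1212, 311 and 2037. Scaling by library size only moved the median of all genes by -0.19 between the TAA groups and by -0.14 in AAV-miR-34b/c against vehicle livers. It gave 624 genes and 2 of the 9 (with *Spp1*, -0.87) between the TAA groups, and 1 higher and 6 lower in the exact test. With close pairs summed, 227, 87 and 331 genes of all and 0, 0 and 2 of the 9 were called, and the exact test passed 1 higher and 4 lower between the TAA groups. Shares of all genes passing the exact test are not given for the alternatives here and below. Its counts of the 9 genes under them therefore have no background beside them.

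Leaving out each library in turn gave 689 to 1859, 209 to 344 and 1267 to 2695 genes of all, and 2 to 4, 1 and 3 of the 9. The number higher by the exact test was 7 to 8, 1 to 2 and 3 to 4, and the number lower 0, 5 to 6 and 0. Genes of all fell to 728, 689 and 806 without vehicle 1, vehicle 4 and AAV-GFP 3 and reached 1859 without AAV-GFP 6 in AAV-GFP against vehicle livers, and fell to 1328 and 1267 without vehicle 1 and vehicle 4 in AAV-miR-34b/c against vehicle livers. The near-zero differences of AAV-miR-34b/c against vehicle changed sign for *Krt23* with a prior count of 0.5 (-0.042), with close pairs summed (-0.027) and in the range without 1 library (-0.19 to 0.26), and for *Cldn7* (-0.21 to 0.10). No log2 fold change of a tested gene changed sign in the alternatives run. For the exact test, leaving out libraries, summing close pairs and all alternatives of its counts were chosen after seeing the data.

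The replicate numbers did not pair the libraries, with correlations of deviations from -0.284 to 0.277 between same-numbered libraries. With the replicate number as a block, 3088, 142 and 922 genes of all were called, and 4 of the 9 in AAV-GFP against vehicle livers. Of the same-numbered libraries, 2 of 5, 1 of 7 and 0 of 5 correlated best with their own number in the 3 comparisons.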
